A study of Homo sapiens with 6 samples.

Results

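BST2 and 8 other interferon-stimulated genes were followed across PC9-AMG, PC9-BrM4 and PC9 cells, with 2 messenger RNA libraries of each. They were taken by symbol (BST2, IFIT1, IFIT2, IFIT3, OAS1, MX1, ISG15, IFI6 and IFI27) from the 26475 genes of the deposited expression table, and all 9 were found. PC9 is an established human lung adenocarcinoma line that carries an activating EGFR mutation. The other lines are derivatives of it: BrM4 is understood to be one derived through brain metastasis, and the labels expand neither BrM4 nor AMG. All 3 lines, PC9 included, were grown in MGS, understood to be growth with mouse glia on a soft substrate, although the labels do not spell it out; cells grown outside MGS were not analysed here. The library names also carry the word mix, which the labels do not explain, and how reads of any mouse cells were treated is not given in the sources used here. No interferon or other agent is named in the labels, which say neither whether the derivatives are clones nor whether the libraries numbered 1 and 2 of a line are separate cultures. Each p-value therefore reflects library-to-library spread that may be technical.

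Type I interferons bind the receptor IFNAR1/IFNAR2, whose kinases JAK1 and TYK2 pass the signal on to transcription factors. These act at the interferon-stimulated response element (ISRE) upstream of many antiviral genes, while interferon gamma acts through another element, the GAS. BST2, also called tetherin, is a membrane protein that holds budding enveloped viruses at the cell surface, and epithelial and cancer cells also express it. The other 8 genes are classic members of the same response.

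The data are TPM, transcript shares normalised for transcript length, so levels can be compared between genes. Differences are between group means of log2(TPM + 1), with 95% intervals, from a limma fit to all 6 libraries and 14627 tested genes; a gene counts as called where its p, adjusted by Benjamini-Hochberg, is under 0.05. All 9 genes passed the filter of 1 TPM in at least 2 libraries. The sum of the 9 was 110 and 100 TPM in the PC9-AMG libraries, 116 and 125 TPM in those of PC9-BrM4 and 91.3 and 98.3 TPM in those of PC9. Without BST2 the sums were 106 and 95.8 TPM in PC9-AMG, 94.6 and 102 TPM in PC9-BrM4 and 88.1 and 96.8 TPM in PC9. The genes were thus detected in every line, with no interferon named in the labels, at levels from 1.38 TPM (IFIT1) to 40.4 TPM (ISG15) as means over the 6 libraries.

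The upstream sequences of 4 of the genes are shown because each holds a match to the ISRE; they were chosen for it. They are the 250 bases before the RefSeq start (build GRCh38.p14), 5′ to 3′ in the direction of the gene; capitals mark matches on either strand to the ISRE core, which is GAAA, any 2 bases and GAAA again, and which reads as TTTC, 2 bases and TTTC from the reverse strand. BST2 lies on the minus strand (chr19:17405631-17405880), ISG15 on the plus strand (chr1:1013247-1013496), IFI6 on the minus strand (chr1:27672193-27672442) and IFIT1 on the plus strand (chr10:89392373-89392622).
BST2: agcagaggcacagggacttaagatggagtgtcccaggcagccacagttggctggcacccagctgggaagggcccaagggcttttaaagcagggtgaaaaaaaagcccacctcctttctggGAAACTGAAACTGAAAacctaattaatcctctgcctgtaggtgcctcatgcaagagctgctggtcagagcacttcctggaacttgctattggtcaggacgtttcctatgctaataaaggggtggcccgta
ISG15: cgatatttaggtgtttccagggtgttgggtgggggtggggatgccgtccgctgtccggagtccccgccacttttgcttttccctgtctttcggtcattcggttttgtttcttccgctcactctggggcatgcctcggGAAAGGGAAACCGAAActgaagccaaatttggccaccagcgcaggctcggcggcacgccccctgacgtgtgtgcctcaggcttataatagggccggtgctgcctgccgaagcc
IFI6: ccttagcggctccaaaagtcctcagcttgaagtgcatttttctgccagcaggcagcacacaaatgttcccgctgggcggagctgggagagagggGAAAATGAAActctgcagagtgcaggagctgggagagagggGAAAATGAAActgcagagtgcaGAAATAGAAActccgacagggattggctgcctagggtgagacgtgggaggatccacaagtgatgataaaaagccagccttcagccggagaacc
IFIT1: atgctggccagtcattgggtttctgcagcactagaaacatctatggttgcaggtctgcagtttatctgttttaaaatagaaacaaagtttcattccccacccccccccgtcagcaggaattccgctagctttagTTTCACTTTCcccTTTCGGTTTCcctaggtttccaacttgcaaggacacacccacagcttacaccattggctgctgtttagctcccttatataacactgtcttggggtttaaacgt

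RefSeq windows were found for 8 of the 9 genes (not for IFIT2), 12 in all. Of the 12, 9 held at least 1 ISRE core, in 7 of the 8 genes. OAS1 had no match with 2 bases between. Its window does hold GAAACGAAA, with 1 base between, which the pattern used leaves out. The same letters lie on the reverse strand in an MX1 window that was counted as having no core. Over all genes, 3.02% of 35116 windows of the same length held an ISRE core with 2 bases between. Of 60 windows of other type I interferon-stimulated genes, 26 did. The BST2 window has 2 overlapping cores, GAAACTGAAA at bases 130 to 121 and again at bases 124 to 115 before the start, which make a run of 16 bases. The GAS letters TTCNNNGAA were found for BST2, IFI27, MX1 and OAS1, in 5 of the 12 windows of the 8 genes, against 8 of 60 windows of other type I interferon-stimulated genes and 6.57% of all windows; in BST2, IFI27 and MX1 a GAS match overlaps an ISRE core. Genes with more than 1 window count more than once in these shares, and the 2 IFI27 windows overlap and hold the same matches. A match describes letters and does not show that a factor binds.

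BST2 rose in PC9-BrM4 and was the only one of the 9 genes called against PC9 in either derivative; of all tested genes, 7.49% were called in PC9-AMG and 16.3% in PC9-BrM4 against PC9. BST2 was at 3.67 and 4.54 TPM in the PC9-AMG libraries, 21.0 and 23.6 TPM in those of PC9-BrM4 and 3.19 and 1.42 TPM in those of PC9. Both PC9-BrM4 libraries lie above all others, and the 3 groups do not overlap. With 2 libraries a group that is common: the groups did not overlap for 59.8% of all tested genes in PC9-AMG against PC9, 61.2% in PC9-BrM4 against PC9 and 59.5% in PC9-AMG against PC9-BrM4. In bulk RNA, fewer cells with the transcript and less of it per cell cannot be told apart. The means were 4.11 ± 0.614 TPM in PC9-AMG, 22.3 ± 1.88 TPM in PC9-BrM4 and 2.30 ± 1.25 TPM in PC9 (SD, n = 2 each).

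PC9-BrM4 stood 2.87 above PC9 (2.31 to 3.43, adjusted p = 7.44e-05), a 9.69-fold ratio of mean TPM. The ratio between single libraries ran between 6.58 and 16.7, the PC9 libraries differing from each other by more in proportion than the PC9-BrM4 libraries. PC9-AMG stood 2.19 below PC9-BrM4 (log2 difference -2.19, -2.75 to -1.64, adjusted p = 0.000429), at 0.184 of its mean TPM. Against PC9, PC9-AMG was 0.68 higher (0.12 to 1.23), which was not called (adjusted p = 0.126). That difference was 1.07 without PC9 library 1 and 0.28 without PC9 library 2, called in neither case. By mean level the order was PC9-BrM4, PC9-AMG, PC9, the last 2 not separated by the test. Only 34 of the 14627 tested genes (0.232%) differed more from PC9 in PC9-BrM4 than BST2 did, in either direction, and 49 differed more between PC9-AMG and PC9-BrM4. BST2 was called in the comparisons with PC9-BrM4 under all 19 alternatives run. Depth limits the low values: the per-base read coverage of BST2 was 3.02 and 3.40 in PC9-AMG, 13.3 and 14.3 in PC9-BrM4, and 2.12 and 0.888 in PC9.

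**Figure D1:**
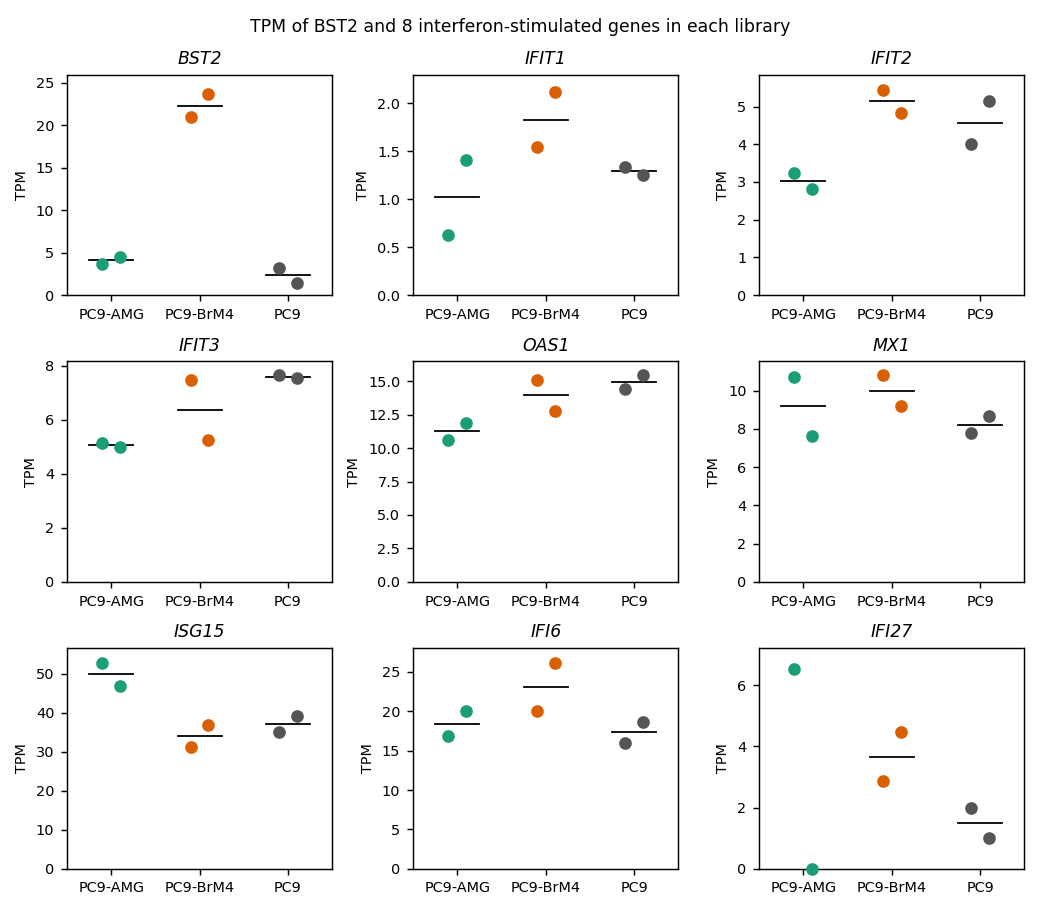
TPM (vertical axes, from 0) of each of the 9 genes in the 2 libraries of PC9-AMG, PC9-BrM4 and PC9 (points); the short line is the mean of 2 libraries and is left out where a library is listed at 0. BST2 at 21.0 and 23.6 TPM in PC9-BrM4 stands far above the other lines, while ISG15 is highest in PC9-AMG at 52.8 and 47.0 TPM.

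BST2 lies on chromosome 19 (17402939 to 17405648, hg38), on the minus strand, so the gene begins at the higher coordinate. BISPR, a non-coding RNA gene named for BST2, begins past that coordinate with 37 bases between. It runs the other way (17405686 to 17415736). The run of ISRE cores (chr19:17405745-17405760) lies within annotated exons of BISPR and of the protein-coding gene MVB12A in GENCODE 29. BISPR was at 0.511 and 0.856 TPM in PC9-AMG, 2.98 and 6.63 TPM in PC9-BrM4 and 1.03 and 0.623 TPM in PC9, so both PC9-BrM4 libraries were again above all others. It rose by 1.60 in PC9-BrM4 against PC9 (0.89 to 2.32, adjusted p = 0.00896) and was lower in PC9-AMG than in PC9-BrM4 (-1.72, adjusted p = 0.00594). Leaving out PC9-BrM4 library 2 ended the first of these calls (adjusted p = 0.0612), and leaving out PC9-AMG library 1 ended the other (0.0574). In the deposited tables BISPR overlaps MVB12A on the same strand, so reads that fit both genes may have gone to either.

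MVB12A, a subunit gene of the endosomal sorting machinery, was at 69.7 and 67.9 TPM in PC9-AMG, 73.8 and 71.1 TPM in PC9-BrM4 and 72.5 and 68.9 TPM in PC9. Its log2 difference of PC9-BrM4 from PC9 was 0.03 (-0.18 to 0.25), so BST2 and BISPR differed between lines beside a gene whose level was nearly the same. On the other side the nearest tested genes lie farther off. By lowest coordinate, GTPBP3, DDA1 and ANO8 stand at -67957, -93411 and -79716 bases from BST2, and BISPR and MVB12A at 2747. GTPBP3, DDA1 and ANO8 were not called in PC9-BrM4 against PC9 (0.04, 0.18 and 0.12). TMEM221, beyond MVB12A, fell there by 0.84 (adjusted p = 0.0207), a call that needed all 4 libraries compared (adjusted p 0.0566 to 0.178 with 1 of them removed). ANO8 fell in PC9-AMG by 0.71 against PC9 (adjusted p = 0.0473), but was not called when the fit lacked either PC9 library (0.140 and 0.308 for 1 and 2), PC9-AMG library 2 (0.200) or either PC9-BrM4 library (0.0740 and 0.0734). It was also lower in PC9-AMG than in PC9-BrM4 (-0.83, adjusted p = 0.0136; 0.0837 without PC9-AMG library 2 and 0.117 without PC9-BrM4 library 1).

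**Figure D2:**
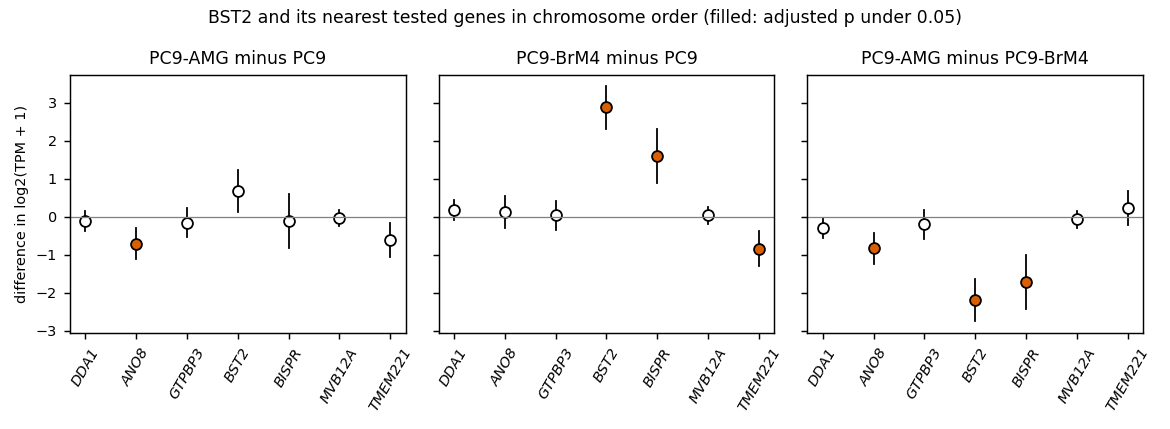
Difference in log2(TPM + 1) (vertical axis, with 95% intervals) of BST2 and the 3 nearest tested genes on each side in chromosome order, in the 3 comparisons; filled points have an adjusted p under 0.05. In PC9-BrM4 minus PC9, BST2 (2.87) and BISPR (1.60) are high while MVB12A is at 0.03.

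IFIT1, IFIT2 and IFIT3 encode RNA-binding proteins with tetratricopeptide repeats, IFIT1 being the one known to bind viral RNA that lacks cap methylation, and lie close together on chromosome 10 (89301949 to 89406487). IFIT1 was at 0.626 and 1.41 TPM in PC9-AMG, 1.54 and 2.12 TPM in PC9-BrM4 and 1.33 and 1.25 TPM in PC9. IFIT2 was at 3.24 and 2.80 TPM in PC9-AMG, 5.44 and 4.83 TPM in PC9-BrM4 and 4.0 and 5.14 TPM in PC9. IFIT3 was at 5.16 and 5.01 TPM in PC9-AMG, 7.48 and 5.26 TPM in PC9-BrM4 and 7.65 and 7.55 TPM in PC9. PC9-AMG held the lowest library of each gene, and for IFIT2 and IFIT3 both PC9-AMG libraries lay below the other 4, beside the 59.8% and 59.5% of all tested genes whose PC9-AMG libraries did not overlap with PC9 and with PC9-BrM4.

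None of these IFIT genes was called in any comparison. PC9-AMG minus PC9 was -0.21 for IFIT1 (-0.81 to 0.39), -0.47 for IFIT2 (-0.90 to -0.03) and -0.50 for IFIT3 (-0.92 to -0.08), with adjusted p between 0.133 and 0.667. PC9-BrM4 minus PC9 was 0.30 for IFIT1 (-0.30 to 0.89), 0.15 for IFIT2 (-0.29 to 0.58) and -0.24 for IFIT3 (-0.66 to 0.18). Each of these upper limits for PC9-BrM4 is below the lower limit of BST2, 2.31. IFIT2 came closest to a call, at -0.61 in PC9-AMG minus PC9-BrM4 (-1.04 to -0.18, adjusted p = 0.0550). IFIT5, the next gene on chromosome 10 (89414568 to 89421002) and another RNA-binding member of the family, did differ. It was at 1.08 and 1.20 TPM in PC9-AMG, 3.55 and 2.82 TPM in PC9-BrM4 and 1.08 and 1.28 TPM in PC9, and rose by 0.94 in PC9-BrM4 against PC9 (adjusted p = 0.0206). That call was lost without PC9 library 1 (adjusted p = 0.126), PC9 library 2 (0.0776) or PC9-BrM4 library 1 (0.0971).

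OAS1 encodes an oligoadenylate synthetase, which on double-stranded RNA makes the messenger that activates RNase L, and lies on chromosome 12 (112906934 to 112919907). It was at 10.6 and 11.9 TPM in PC9-AMG, 15.1 and 12.8 TPM in PC9-BrM4 and 14.4 and 15.4 TPM in PC9. The PC9-AMG libraries were the lowest, but PC9-AMG minus PC9 was -0.38 (-0.71 to -0.05) and was not called (adjusted p = 0.147). PC9-BrM4 minus PC9 was -0.09 (-0.43 to 0.24). Its neighbour OAS3 (112938433 to 112973249), a longer enzyme of the same family, was at 5.42 and 5.23 TPM in PC9-AMG, 11.9 and 7.26 TPM in PC9-BrM4 and 4.39 and 4.32 TPM in PC9. OAS3 rose by 0.94 in PC9-BrM4 against PC9 (adjusted p = 0.0166), a call lost without PC9 library 1 (0.0733), PC9 library 2 (0.0803) or PC9-BrM4 library 1 (0.0716). Whether OAS3 and OAS1 changed by different amounts was not tested.

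MX1, on chromosome 21 (41420558 to 41459214), encodes a dynamin-like GTPase that blocks influenza and other viruses. It was at 10.7 and 7.62 TPM in PC9-AMG, 10.8 and 9.18 TPM in PC9-BrM4 and 7.76 and 8.67 TPM in PC9. The 2 PC9-AMG libraries spanned almost the whole range of the 6, and MX1 was not called in any comparison (adjusted p between 0.401 and 0.716). PC9-AMG minus PC9-BrM4 was -0.13 (-0.54 to 0.29), a sign that turned with median centring (0.05) and with quantile normalization (0.04).

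ISG15, on chromosome 1 (1013467 to 1014539), encodes a ubiquitin-like protein that is joined to other proteins during the antiviral response. It was at 52.8 and 47.0 TPM in PC9-AMG, 31.3 and 36.9 TPM in PC9-BrM4 and 35.1 and 39.1 TPM in PC9, so the PC9-AMG libraries were above the other 4 and the remaining groups overlapped. ISG15 was higher in PC9-AMG than in PC9-BrM4 by 0.54 (0.25 to 0.82, adjusted p = 0.0189), a direction opposite to that of BST2. The call was lost without PC9-AMG library 1 (adjusted p = 0.0901) and without PC9-BrM4 library 1 (0.118). It was also lost with no filter (0.0506) and with moderation without the trend (0.0539). PC9-AMG minus PC9 was 0.42 (0.13 to 0.71) and missed the threshold (adjusted p = 0.0779), but passed it under a 5 TPM filter (0.0474). PC9-BrM4 minus PC9 was -0.12 (-0.41 to 0.17).

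IFI6 and IFI27 encode small hydrophobic membrane proteins of one family, on chromosomes 1 (27666061 to 27672213) and 14 (94110733 to 94116699). IFI6 was at 16.8 and 20.1 TPM in PC9-AMG, 20.1 and 26.2 TPM in PC9-BrM4 and 15.9 and 18.7 TPM in PC9, with PC9-BrM4 minus PC9 at 0.39 (0.02 to 0.76, adjusted p = 0.142). IFI27 was at 6.53 and 0 TPM in PC9-AMG, 2.86 and 4.47 TPM in PC9-BrM4 and 1.97 and 1.01 TPM in PC9. The 2 PC9-AMG libraries held both the highest and the lowest IFI27 value of the series, and the value of 0 may be a failed estimate. PC9-AMG minus PC9-BrM4 was -0.74 with an interval between -2.33 and 0.84; without PC9-AMG library 1 it was -2.20 and called (adjusted p = 0.0150), and without PC9-AMG library 2 it was 0.71 (0.221).

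**Figure D3:**
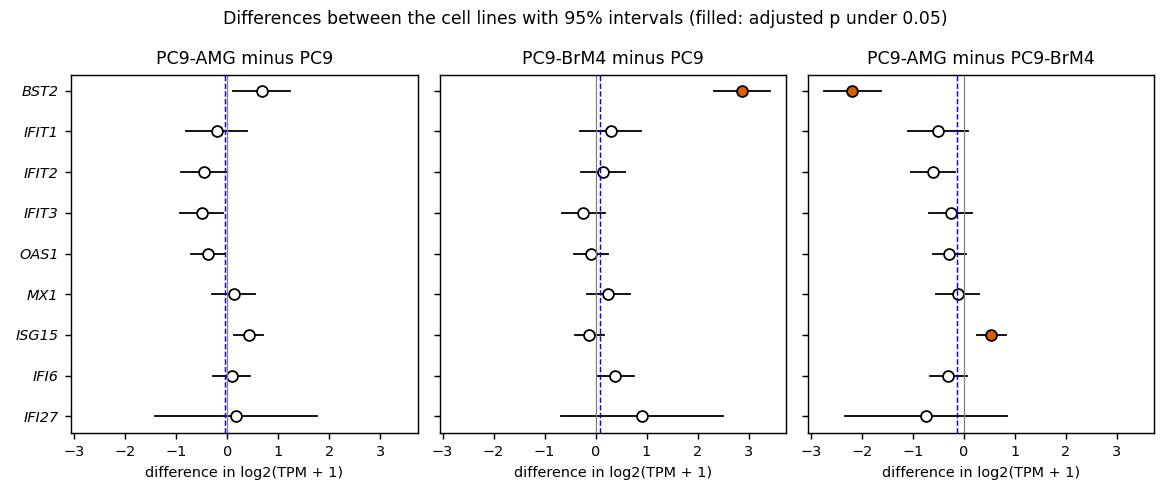
Difference in log2(TPM + 1) (horizontal axis, with 95% intervals) of the 9 genes in the 3 comparisons; filled points have an adjusted p under 0.05 and the dashed line is the median of all tested genes. BST2 (2.87) is the only filled point against PC9, and BST2 (-2.19) and ISG15 (0.54) are filled on opposite sides in PC9-AMG minus PC9-BrM4.

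Counted together, 0 of the 9 genes were called by limma in PC9-AMG against PC9, where 7.49% of all tested genes were (3.67% higher, 3.82% lower); 5 of the 9 had an unadjusted p under 0.05, 2 of them higher and 3 lower, beside 25.3% of all tested genes. In PC9-BrM4 against PC9, 1 of 9 was called, higher, where 16.3% of all tested genes were called, 9.89% higher and 6.45% lower; 2 of the 9 had an unadjusted p under 0.05, beside 30.6% of all tested genes. In PC9-AMG against PC9-BrM4, 2 of 9 were called, 1 in each direction, where 18.6% of all tested genes were (6.31% higher, 12.3% lower); 3 of the 9 had an unadjusted p under 0.05, beside 34.7%. With 9 genes these counts are a description, and no test was made of the list. Their median log2 difference was 0.09 in PC9-AMG minus PC9, 0.25 in PC9-BrM4 minus PC9 and -0.30 in PC9-AMG minus PC9-BrM4, beside -0.05, 0.09 and -0.13 over all tested genes. Relative to the shift of all genes between the derivatives, with median centring, PC9-AMG minus PC9-BrM4 was -2.02 for BST2 and 0.71 for ISG15, both called. The comparisons share libraries, so their counts are not independent.

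The background counts rest on few libraries. In PC9-AMG against PC9, 1096 genes were called, but 369 and 152 without PC9-AMG libraries 1 and 2 and 160 and 131 without PC9 libraries 1 and 2. In PC9-AMG against PC9-BrM4, 2720 genes were called, 923 higher and 1797 lower (1606 and 900 with median centring). That count was 1782 and 1423 without PC9-AMG libraries 1 and 2, and 1024 without PC9-BrM4 library 1. In PC9-BrM4 against PC9, 2389 genes were called, 1446 higher and 943 lower (917 and 1293 with median centring). There 1195 were called without PC9-BrM4 library 1 and 927 and 892 without PC9 libraries 1 and 2. In PC9-AMG against PC9 the split was 537 higher and 559 lower (685 and 436 with median centring).

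The wider list of type I interferon-stimulated genes was described in the same way, without a set test. The shares of all tested genes given above stand beside this list and those that follow. Of 58 listed genes 53 were tested. In PC9-BrM4 against PC9, 3 rose and 4 fell, beside 9.89% and 6.45% of all tested genes. The median log2 difference was 0.07, beside 0.09 over all tested genes. OAS3 and IFIT5 rose, as did TYMP, the thymidine phosphorylase gene, with 50.5 and 69.7 TPM in PC9-BrM4 against 33.2 and 35 TPM in PC9 (0.78, adjusted p = 0.00791; 0.0555 without PC9 library 1). IFI44 fell to 0.666 and 0.482 TPM in PC9-BrM4, against 3.46 and 2.94 TPM in PC9 (-1.42, adjusted p = 0.00243), a call kept without each library in turn. The others lower were PARP9 (-0.69), the GTPase gene GBP2 (-0.64) and SP100 (-0.35), a nuclear body gene; GBP2 was at 27.7 and 26.2 TPM in PC9-BrM4 and 42.4 and 42.8 TPM in PC9. Removing either PC9 library ended these 3 calls (adjusted p between 0.0685 and 0.258), as did removing PC9-BrM4 library 2 for PARP9 (0.0902) and PC9-BrM4 library 1 or 2 for SP100 (0.0874 and 0.132). Both were also lost with no filter (0.0732 for PARP9 and 0.0680 for SP100) and without the trend (0.0507 and 0.116), and SP100 with the replicate block (0.0554) and a pseudocount of 0.1 (0.0509). Without PC9 library 1 only 1 gene of the list was called and without PC9 library 2 only 2, while 4 were called without PC9-BrM4 library 1.

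In PC9-AMG against PC9, 2 of the 53 rose and 0 fell, beside 3.67% and 3.82% of all tested genes. The median was -0.04, beside -0.05 over all tested genes. IFITM3, a membrane protein that blocks virus entry, was at 325 and 302 TPM in PC9-AMG and 238 and 226 TPM in PC9 (0.43, adjusted p = 0.0286). The exonuclease gene ISG20 was at 12.7 and 12.7 TPM in PC9-AMG and 7.97 and 8.28 TPM in PC9 (0.59, adjusted p = 0.0395). Both calls needed all 4 libraries compared (adjusted p 0.0805 to 0.290 with 1 of them removed). In PC9-AMG against PC9-BrM4, 3 were higher and 4 lower, beside 6.31% and 12.3% of all tested genes. The median was -0.08, beside -0.13 over all tested genes. IFI44 was higher by 1.27 (adjusted p = 0.00413) and TYMP lower by 1.27 (log2 difference -1.27, adjusted p = 0.000591), and both kept the call without each library in turn. IFIT5 was lower (-0.96, adjusted p = 0.0171), but not without PC9-AMG library 1 (0.0677) or 2 (0.0616) or PC9-BrM4 library 1 (0.0997). That count was 3 or fewer without any one of PC9-AMG library 1 (3), PC9-AMG library 2 (2), PC9-BrM4 library 1 (2) and PC9 libraries 1 and 2 (3 each).

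Of the 18 tested targets typical of interferon gamma (24 listed), 1 rose in PC9-BrM4 against PC9 and 0 fell. It was ICAM1, an adhesion molecule gene that NF-kappaB also drives, at 63.9 and 58.3 TPM in PC9-AMG, 109 and 101 TPM in PC9-BrM4 and 50.4 and 51.4 TPM in PC9 (PC9-BrM4 minus PC9 1.03, adjusted p = 0.000183). It was also lower in PC9-AMG than in PC9-BrM4 (-0.77, adjusted p = 0.00106). None of the 18 was called in PC9-AMG against PC9. There 7 had an unadjusted p under 0.05, all of them higher, beside 25.3% of all tested genes. In PC9-BrM4 against PC9, 8 had an unadjusted p under 0.05, all but GBP4 higher, beside 30.6%. The median log2 difference was 0.12 in PC9-AMG minus PC9 and 0.13 in PC9-BrM4 minus PC9, beside -0.05 and 0.09 over all tested genes. CXCL10, a chemokine gene often used as an interferon readout, was under 1 TPM in every library and was not tested.

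**Figure D4:**
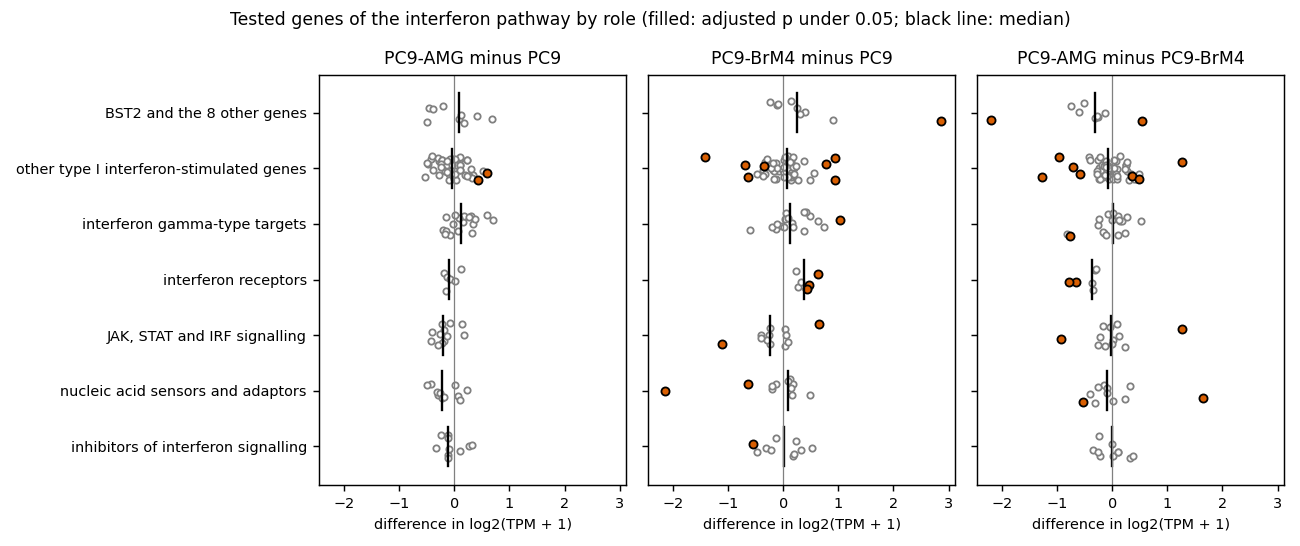
Difference in log2(TPM + 1) (horizontal axis) of each tested gene of the interferon pathway, by role, in the 3 comparisons; filled points have an adjusted p under 0.05 and the black line is the median of the list. Most lists straddle 0, and the point far to the right in PC9-BrM4 minus PC9 is BST2 (2.87).

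Upstream of these genes, of 21 listed interferon genes 18 were listed at 0 in all 6 libraries, IFNB1, IFNG and IFNL1 among them. Only IFNE, an epithelial type I interferon, reached the filter, at 1.61 and 0.945 TPM in PC9-AMG, 1.55 and 0.576 TPM in PC9-BrM4 and 2.24 and 1.96 TPM in PC9. It was not called (adjusted p between 0.175 and 0.712). The read depth is unknown, so a listing at 0 does not show that a transcript is absent.

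Of the 6 interferon receptor genes, 3 rose in PC9-BrM4 against PC9 and 0 fell, beside 9.89% and 6.45% of all tested genes. The median log2 difference was 0.37, beside 0.09 over all tested genes. In PC9-AMG against PC9-BrM4, 0 were higher and 2 lower, and 0 were called in PC9-AMG against PC9 (0 also at an unadjusted p under 0.05). IFNGR2, a subunit of the interferon gamma receptor, was at 66.3 and 63.6 TPM in PC9-AMG, 115 and 109 TPM in PC9-BrM4 and 71.9 and 71.5 TPM in PC9. It rose by 0.64 in PC9-BrM4 (adjusted p = 0.00204) and was lower in PC9-AMG than in PC9-BrM4 (-0.78, adjusted p = 0.000672), calls kept without each library in turn. IFNAR1, a type I receptor subunit, was at 20.4 and 22 TPM in PC9-AMG, 36.4 and 31.6 TPM in PC9-BrM4 and 25 and 23.6 TPM in PC9. IFNAR1 rose by 0.47 (adjusted p = 0.0342) and IFNGR1 by 0.43 (0.0263) in PC9-BrM4. Neither was called without PC9 library 1 (0.168 and 0.152), PC9 library 2 (0.264 and 0.210) or PC9-BrM4 library 1 (0.127 and 0.117), or with median centring (0.0626 and 0.0805), quantile normalization (0.0526 and 0.0632) or moderation without the trend (0.0622 and 0.0753), nor was IFNAR1 with no filter (0.0584). IFNAR2, IL10RB, IFNAR1 and IFNGR2 lie next to each other on chromosome 21 (33229895 to 33437521). All 4 had a positive difference in PC9-BrM4 against PC9, between 0.24 and 0.64, but IFNAR2 and IL10RB were not called (limma adjusted p = 0.444 and 0.0650).

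Among 12 genes of JAK, STAT and IRF signalling, 1 rose and 1 fell in PC9-BrM4 against PC9, and 0 were called in PC9-AMG against PC9 (3 at an unadjusted p under 0.05). IRF7, the master regulator of type I interferon genes, was at 11.9 and 11.2 TPM in PC9-AMG, 21.9 and 24.3 TPM in PC9-BrM4 and 13.6 and 15.1 TPM in PC9. It rose by 0.65 in PC9-BrM4 (adjusted p = 0.0115), lost without PC9 library 1 (0.144), PC9 library 2 (0.0682) or PC9-BrM4 library 2 (0.0511), and was lower in PC9-AMG than in PC9-BrM4 (-0.94, adjusted p = 0.00185). IRF5, another activator, was at 5.90 and 5.60 TPM in PC9-AMG, 1.55 and 2.06 TPM in PC9-BrM4 and 5.16 and 4.86 TPM in PC9. It fell by 1.11 in PC9-BrM4 (adjusted p = 0.00421) and was higher in PC9-AMG than in PC9-BrM4 (1.27, adjusted p = 0.00201). STAT2 and IRF9, factors of the type I response, were not called in any comparison, with PC9-BrM4 minus PC9 at -0.41 for STAT2 (-0.71 to -0.11) and -0.40 for IRF9 (-0.74 to -0.06).

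Of 11 tested sensors and adaptors of nucleic acid sensing, 0 rose and 2 fell in PC9-BrM4 against PC9, and 0 were called in PC9-AMG against PC9 (3 at an unadjusted p under 0.05). IFI16, a DNA sensor, was at 21.2 and 22 TPM in PC9-AMG, 5.66 and 6.77 TPM in PC9-BrM4 and 30.6 and 31.2 TPM in PC9. It fell by 2.15 in PC9-BrM4 (adjusted p = 1.05e-05) and was higher in PC9-AMG than in PC9-BrM4 (1.65, adjusted p = 7.33e-05). PC9-BrM4 was thus the lowest line for IFI16 and the highest for BST2. PC9-AMG minus PC9 was -0.50 for IFI16 and was not called (adjusted p = 0.0562). IFI16 is itself interferon-stimulated. In PC9-AMG against PC9-BrM4, 1 of the 11 was higher, IFI16, and 1 lower: MAVS, the adaptor of the RNA sensors, at 27.8 and 22.7 TPM in PC9-AMG and 41.6 and 32.7 TPM in PC9-BrM4 (-0.54, adjusted p = 0.0343). The MAVS call was lost without PC9-AMG library 2 (0.167), PC9-BrM4 library 1 (0.199) or either PC9 library (0.0587 and 0.0584), and with median centring (0.0740). TMEM173, which encodes the adaptor STING, fell by 0.64 in PC9-BrM4 against PC9 (adjusted p = 0.00975). That call was ended by removing either PC9 library (log2 difference -0.65 and -0.62 without 1 and 2) or PC9-BrM4 library 2 (-0.57). Of 10 inhibitors of the pathway, SOCS3 fell by 0.55 in PC9-BrM4 (adjusted p = 0.0101; 0.125 and 0.0807 without PC9 libraries 1 and 2), and no other was called in any comparison. USP18, which removes ISG15 from proteins and restrains the type I receptor, was at 5.84 and 5.39 TPM in PC9-AMG, 6.35 and 7.30 TPM in PC9-BrM4 and 4.34 and 4.60 TPM in PC9, and was not called.

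The 5 genes whose centred profile over the 6 libraries lay nearest to that of BST2, among 10702 candidates, were CYP27A1 (a sterol hydroxylase gene), MGP (a calcification inhibitor gene), CCK (a peptide hormone gene), MFAP3L and DEGS1 (a sphingolipid desaturase gene). Their Euclidean distances on the log2(TPM + 1) scale were between 0.412 and 0.725. CYP27A1 was at 3.79 and 3.08 TPM in PC9-AMG, 16.8 and 19.5 TPM in PC9-BrM4 and 2.29 and 1.34 TPM in PC9. None of the 5 is on the interferon lists. The nearest of the other 8 genes was IFIT1, at a distance of 2.68 and rank 1577. The farthest was ISG15, at 3.39 and rank 9541. Distances were not scaled to the spread of each gene, so flat profiles also lie far from BST2. For IFIT3, the most abundant of the 3 IFIT genes, the nearest were VTCN1, FNIP1, UTP14C, VWA8 and BRAF, at 0.0966 to 0.106. OAS1 stood at 0.265 from IFIT3, at rank 266. Profiles over 6 libraries in 3 groups are a description only.

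The labelled cell type was checked against markers. All 8 epithelial markers were expressed, their sum lying between 13532 and 14092 TPM in PC9-AMG, 11814 and 12169 TPM in PC9-BrM4 and 15605 and 15841 TPM in PC9. Most of that sum was KRT7, KRT8, KRT18 and KRT19. In PC9-BrM4 against PC9, 0 of the 8 rose and 4 fell (KRT7, KRT18, KRT19 and MUC1). The MUC1 call was lost without PC9 library 1 or either PC9-BrM4 library. EPCAM, CDH1 and EGFR had positive differences there (0.28, 0.38 and 0.45), none of them called. Of 12 microglia and leukocyte markers 8 were listed at 0 in every library, CX3CR1, TMEM119, C1QA and TYROBP among them. The sum of that list was 246 and 225 TPM in PC9-AMG, 181 and 166 TPM in PC9-BrM4 and 232 and 226 TPM in PC9, nearly all of it CD68, a lysosomal gene that many cell types express, which fell in PC9-BrM4 against PC9 (-0.48, adjusted p = 0.00651; 0.0872 and 0.0610 without PC9 libraries 1 and 2). ITGAM, an integrin gene of myeloid cells, was at 6.96 and 6.19 TPM in PC9-AMG, 8.54 and 6.57 TPM in PC9-BrM4 and 3.40 and 3.36 TPM in PC9. It rose in PC9-BrM4 (0.96, adjusted p = 0.00746; 0.0528 without PC9 library 2) and in PC9-AMG (0.79, adjusted p = 0.0340; 0.109 to 0.197 without 1 of the 4 libraries). CSF1R, another myeloid gene, lay between 6.81 and 9.96 TPM and was not called. The astrocyte markers GFAP and S100B were at 0 throughout; the sum of the 8 was 75.8 and 70.0 TPM in PC9-AMG, 28.0 and 27.2 TPM in PC9-BrM4 and 32.8 and 36.3 TPM in PC9, mostly ALDH1L1 and APOE. SLC1A3, a glutamate transporter gene of astrocytes, was at 0.652 and 0.361 TPM in PC9-AMG, 3.44 and 2.12 TPM in PC9-BrM4 and listed at 0 in both PC9 libraries, high in the same line as BST2. APOE and ALDH1L1 went the other way, with their lowest values in PC9-BrM4. APOE was at 41.9 and 39.7 TPM in PC9-AMG, 4.52 and 6.51 TPM in PC9-BrM4 and 9.17 and 13.9 TPM in PC9. ALDH1L1 was at 32.8 and 29.6 TPM in PC9-AMG, 19.8 and 18.3 TPM in PC9-BrM4 and 23.1 and 21.8 TPM in PC9. The endothelial markers summed to between 1.51 and 2.11 TPM per library. The oligodendrocyte list (4 of 8 at 0 in every library) was nearly all MBP, at 20.2 to 26.8 TPM, and the fibroblast list mostly COL1A1, at 15.4 and 9.06 TPM in PC9-AMG, 17.1 and 15.4 TPM in PC9-BrM4 and 8.92 and 10.9 TPM in PC9, neither gene called. The part of any other cells in the difference of BST2 was not tested.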

How the data were processed

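Per the labels, total RNA was made into stranded mRNA libraries, 2 per cell line. The submitters' processing notes name HISAT2 2.1.0, StringTie 1.3.4d and hg38; the annotation, read length and use of strand are not given in the sources used here. Per the file headers, the authors' library tables hold Coverage, FPKM and TPM per gene row. Coverage is understood to be mean per-base coverage, not scaled to depth, which the headers do not spell out. TPM in the deposited tables sums to 1000000 in each library; rows of one symbol were summed, giving 26485 genes. The deposited TPM table over all libraries holds the same values for the 9 genes. No file gives read counts, so no counting interval was computed.

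Limma 3.58.1 in R 4.3.3 was run on log2(TPM + 1) of the 14627 genes that reached 1 TPM in 2 or more libraries, 1 mean per line, with a variance trend (3 residual and 6.81 prior degrees of freedom). Tests were two-sided, with Benjamini-Hochberg adjustment over all tested genes; the fit was tested on simulated data. The genes, lists and tests were chosen with earlier results of these data known. Named besides the 9 are the 3 nearest tested genes on each side of BST2, the 5 nearest profiles among tested genes averaging at least 5 TPM in a line, and up to 4 called genes of each list with the largest differences per comparison; other named genes were picked with their values in view. Promoter windows are RefSeq's. Values of some genes of the signalling list are not reported here.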

Additional observations from a re-analysis of the deposited data

Results flagged for a closer look

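The change from PC9 differed between the derivatives for 2 of the 9 genes, by the test of PC9-AMG against PC9-BrM4 itself. The same test called 18.6% of all tested genes. BST2 was at 3.67 and 4.54 TPM in PC9-AMG and 21.0 and 23.6 TPM in PC9-BrM4, a log2 difference of -2.19 (limma adjusted p = 0.000429). ISG15 was at 52.8 and 47.0 TPM in PC9-AMG and 31.3 and 36.9 TPM in PC9-BrM4 (0.54, adjusted p = 0.0189). The ISG15 call was kept under 15 of the 19 alternatives.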

How the results depend on the processing

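For the 9 genes, 485 of the values under the alternatives kept their direction and side of the threshold; 14 turned direction, 4 gained and 4 lost a call. BST2 in PC9-BrM4 minus PC9 ranged between 2.40 and 3.32 (highest adjusted p 0.00882), and in PC9-AMG minus PC9-BrM4 between -2.42 and -1.85 (0.0194). With pseudocounts of 0.1 and 0.5, IFI27 in PC9-AMG minus PC9 was -0.90 and -0.043. MX1 in PC9-AMG minus PC9-BrM4 was 0.047 with median centring and 0.042 with quantile normalization. Leaving out each library in turn, PC9-AMG minus PC9 ranged between -1.29 and 1.62 for IFI27 (below 0 without PC9-AMG library 1 or PC9 library 2), between -0.036 and 0.21 for IFI6 (below 0 without PC9-AMG library 2 or PC9 library 1), between -0.49 and 0.073 for IFIT1 and between -0.10 and 0.35 for MX1 (each turned without PC9-AMG library 1). PC9-AMG minus PC9-BrM4 ranged between -2.20 and 0.71 for IFI27 and between -0.35 and 0.10 for MX1, each turned without PC9-AMG library 2. PC9-BrM4 minus PC9 ranged between -0.0025 and 0.29 for IFIT2 (turned without PC9 library 1) and between -0.21 and 0.016 for OAS1 (turned without PC9-BrM4 library 2). No value that turned direction was called. IFIT2 in PC9-AMG minus PC9-BrM4 was called without the trend (adjusted p = 0.0442) and with robust moderation (0.0408).

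With no filter, 250 genes were called in PC9-AMG against PC9 and 1799 in PC9-AMG against PC9-BrM4; without the trend, PC9-AMG against PC9 had 325. Of the 9 genes, 1 was called in PC9-AMG against PC9 with the filter at 5 TPM, and 1 in PC9-AMG against PC9-BrM4 with no filter. Of the other type I interferon-stimulated genes, PC9-AMG against PC9 had 0 with no filter, 5 with the filter at 5 TPM and 0 without the trend; PC9-AMG against PC9-BrM4 had 3, 4 and 3 with no filter, without the trend and with only the 4 libraries compared; PC9-BrM4 against PC9 had 4 with no filter. Leaving out each library in turn gave, over all genes, 131 to 1152, 1024 to 2886 and 892 to 2383 calls in PC9-AMG against PC9, PC9-AMG against PC9-BrM4 and PC9-BrM4 against PC9. It gave 0 to 0, 1 to 2 and 1 to 1 of the 9 genes, and 0 to 3, 2 to 8 and 1 to 7 of the other list, in the same order. A lone library is then assumed to vary like the other groups. The causes were not tested.

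Deviations of libraries with the same number correlated by 0.0027, -0.039 and 0.029 between groups. The labels do not say whether libraries of the same number share a batch, and with 2 libraries a group these values cannot decide it. With the replicate number as a block, 0, 2 and 1 of the 9 genes and 1298, 2905 and 2483 of all genes were called in that order of comparisons. Low values, such as those of IFIT1, IFI27 and BST2 in PC9, limit the precision.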
